A study of Mus musculus with 8 samples.

Results

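The CD300 and TREM receptors are immunoglobulin-like proteins on the surface of myeloid cells, and Tyrobp encodes DAP12, the adaptor through which many of them signal. The 10 genes described here are Cd300a, Cd300lb, Cd300ld, Cd300lf, Trem1, Trem2, Trem3, Treml1, Treml4 and Tyrobp, of 18193 genes that the arrays measured. They were chosen by symbol: a probe set had to list exactly 1 of the 10 symbols, 13 probe sets did, and a gene takes its values from whichever of its probe sets averaged highest on the 8 arrays. The families were proposed with earlier results of these data known, in which Cd300lb (with LPS) and Treml1 (without) were among the genes that differed most between the genotypes, so the values of these 2 genes are given as a description with no p.

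The macrophages were grown from mouse bone marrow in macrophage colony-stimulating factor, and the 8 Affymetrix arrays form 4 groups of 2: Tpl2-deficient macrophages treated with lipopolysaccharide (LPS, a bacterial ligand of toll-like receptor 4) at 1 μg/mL, wild-type macrophages treated with LPS, unstimulated Tpl2-deficient macrophages and unstimulated wild-type macrophages. Tpl2, the product of Map3k8, is the kinase that carries toll-like receptor signals to MEK and ERK. The labels describe the deficient mice by genotype alone, naming no Cre, transgene or targeting construct, and give neither strain, age and sex nor the duration of LPS treatment. Replicates are labelled as biological, but separate animals are not mentioned, so a p-value reflects the spread between the arrays at hand, which may be technical.

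Receptors of these families work in pairs. Activating members have short tails and depend on an adaptor such as DAP12 or the Fc receptor gamma chain, whose ITAM motif recruits the kinase SYK. Inhibitory members carry ITIM motifs in their own tails, which recruit phosphatases such as SHP-1 and SHIP-1. On macrophages they sense lipids, dying cells and microbial products, and they raise or restrain the response to toll-like receptor ligands.

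Promoter sequence was looked up because 4 neighbouring CD300 genes moved together with LPS, and Treml1 is shown beside them because it differed between the genotypes at rest. RefSeq (build GRCm38.p6) gave a promoter for 8 of the 10 genes, all except Trem3 and Tyrobp. The 250 bases before the annotated start are printed 5′ to 3′ on the gene's own strand, with motif matches in capitals. They span chr11:114934372-114934621 for Cd300lb (minus strand), chr11:114989887-114990136 for Cd300ld (minus strand), chr11:114889791-114890040 for Cd300a (plus strand), chr11:115133993-115134242 for Cd300lf (minus strand) and chr17:48359666-48359915 for Treml1 (plus strand).
Cd300lb: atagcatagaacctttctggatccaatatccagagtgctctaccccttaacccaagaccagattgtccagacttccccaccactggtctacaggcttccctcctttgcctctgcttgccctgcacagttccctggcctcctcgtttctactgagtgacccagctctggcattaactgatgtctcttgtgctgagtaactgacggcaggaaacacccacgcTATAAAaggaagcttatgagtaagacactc
Cd300ld: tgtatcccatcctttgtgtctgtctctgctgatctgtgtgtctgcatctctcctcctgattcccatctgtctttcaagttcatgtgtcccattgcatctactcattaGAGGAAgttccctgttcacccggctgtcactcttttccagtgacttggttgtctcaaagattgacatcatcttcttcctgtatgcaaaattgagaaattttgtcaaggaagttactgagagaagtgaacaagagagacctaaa
Cd300a: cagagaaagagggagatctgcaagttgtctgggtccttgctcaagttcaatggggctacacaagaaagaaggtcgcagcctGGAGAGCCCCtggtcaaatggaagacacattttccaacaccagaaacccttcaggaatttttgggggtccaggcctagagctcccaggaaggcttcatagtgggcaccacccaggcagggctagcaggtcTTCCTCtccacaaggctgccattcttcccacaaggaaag
Cd300lf: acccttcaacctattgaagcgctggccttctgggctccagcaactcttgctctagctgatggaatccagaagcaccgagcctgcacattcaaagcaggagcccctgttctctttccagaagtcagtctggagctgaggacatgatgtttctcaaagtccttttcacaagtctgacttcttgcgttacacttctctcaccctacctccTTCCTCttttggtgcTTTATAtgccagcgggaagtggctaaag
Treml1: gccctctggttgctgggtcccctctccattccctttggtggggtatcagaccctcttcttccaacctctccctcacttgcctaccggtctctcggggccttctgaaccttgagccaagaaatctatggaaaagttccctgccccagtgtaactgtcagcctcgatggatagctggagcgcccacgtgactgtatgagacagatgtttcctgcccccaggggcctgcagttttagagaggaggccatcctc

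The motifs searched, on both strands, were the core GAGGAA bound by the myeloid factor PU.1, the AP-1 motif TGANTCA, the NF-kB motif, the interferon response core (GAAA, any 2 bases, GAAA) and TATAAA. The PU.1 core was found before Cd300ld (143 to 138 bases before the start), Cd300a (39 to 34, opposite strand) and Cd300lf (43 to 38, opposite strand). It stood in 6 of the 8 promoters and in 23.1% of 27025 promoters of the same length. Cd300a also held an NF-kB match from 169 to 160 bases before the start, a motif in 3.75% of all promoters. TATAAA was the only match before Cd300lb, at 30 to 25 bases, and it also stood before Cd300lf on the opposite strand. It occurred in 13% of all promoters. Trem2 held the only AP-1 match, at 9 to 3 bases before its start, against 6.87% of all promoters. The interferon core stood in 0 of the 8 and in 3.04% of all. The printed Treml1 stretch held none of the 5 motifs, which says only that these letters are not in this window.

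Values are log2 intensities from RMA, a method that corrects, normalizes and summarizes the probes of each probe set. Array medians lay between 6.48 and 6.53, and a level under the median is not taken here as evidence of expression. Precision is limited by how many arrays there are. Replicate arrays correlated over probe sets at r = 0.994 in LPS-treated Tpl2-deficient macrophages and 0.997 in the other groups, and the median SD of a gene between the 2 arrays was 0.129 there, against 0.065 to 0.066 in the others. The Map3k8 probe set averaged 9.96 in LPS-treated Tpl2-deficient macrophages and 10.96 in LPS-treated wild-type macrophages, and 8.28 against 9.27 without LPS, a log2 difference with a 95% interval of -1.25 to -0.75 in each state (limma adjusted p = 0.000125 with LPS and 0.00237 without). Whether this probe set lies in the targeted part of the gene is not known here. All 8 macrophage markers had group means above the array median in all 4 groups. The 3′ to 5′ log2 ratio of the Actb control probe sets, a sign of RNA quality, was 0.61 to 0.68 in LPS-treated Tpl2-deficient, 0.46 to 0.55 in LPS-treated wild-type, 0.87 to 0.90 in unstimulated Tpl2-deficient and 0.67 to 0.81 in unstimulated wild-type macrophages. The Gapdh ratio was 0.05 to 0.10 in LPS-treated Tpl2-deficient, -0.09 to -0.07 in LPS-treated wild-type, 0.06 to 0.07 in unstimulated Tpl2-deficient and -0.03 to 0.09 in unstimulated wild-type macrophages. The Actb ranges stood apart between the genotypes in both states and the Gapdh ranges with LPS. Between LPS-treated and unstimulated arrays the Actb ranges stood apart in both genotypes, and the Gapdh ranges in wild-type macrophages only. The part of these ratios in the results was not tested. In bulk RNA, fewer cells of a type and less RNA per cell cannot be told apart.

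The 4 CD300 genes among those chosen fell with LPS in both genotypes. In each, the LPS level was lower in Tpl2-deficient than in wild-type macrophages. Of these, Cd300lb is one of the genes behind the choice of the families. The genotype calls with LPS of Cd300a, Cd300ld and Cd300lf were lost without wild-type LPS replicate 2. Their relative Cd300c2 fell in both genotypes too, but its genotype difference with LPS was -0.09, which did not pass. Treml1, an inhibitory TREM family member, also fell with LPS in both genotypes but was higher in Tpl2-deficient macrophages at rest. Trem2 and Tyrobp, both bright on every array, fell by much less, and neither passed between the genotypes. Trem1, Trem3 and Treml4 stayed at or under the array median in nearly all arrays.

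With LPS, 8 of the 10 genes were lower and 0 higher in Tpl2-deficient macrophages, where 25.8% of all genes were lower, 16.0% higher and 41.8% called in either direction. In wild-type macrophages 7 were lower and 2 higher, where 30.9% of all genes were lower, 21.3% higher and 52.2% called. With LPS the 10 genes had a median log2 difference of -1.25 in Tpl2-deficient macrophages (0.00 over all genes) and -1.16 in wild-type macrophages (0.04 over all genes). A gene is called at a limma adjusted p under 0.05 over all genes. These 2 comparisons share no arrays with each other, but each shares arrays with the comparisons of genotypes. Cd300lb and Treml1 are in both counts and medians, and the arrays behind the choice of the families enter them. For this reason nothing is read from the Tpl2-deficient count and median.

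**Figure D1:**
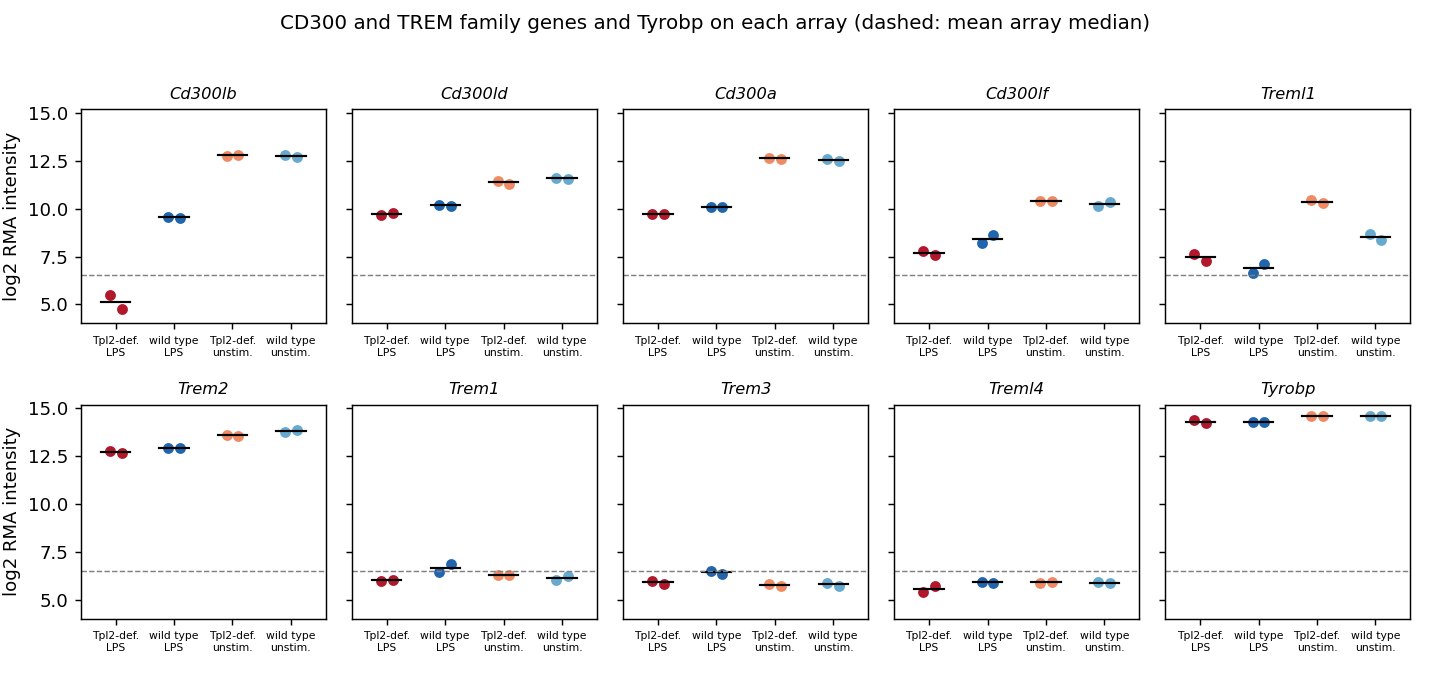
Log2 RMA intensity of the 10 genes on each array, by group, with LPS-treated groups left of unstimulated ones and Tpl2-deficient left of wild type; bars are means of 2 arrays and the dashed line is the mean array median. The 2 LPS-treated Tpl2-deficient arrays of Cd300lb lie at 5.47 and 4.78, under the dashed line, while both unstimulated groups lie near 12.8.

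Cd300lb (CLM-7, or LMIR5) is an activating receptor that couples to DAP12. It measured 5.47 and 4.78 in LPS-treated Tpl2-deficient macrophages, 9.58 and 9.52 in LPS-treated wild-type macrophages, 12.78 and 12.81 in unstimulated Tpl2-deficient macrophages and 12.79 and 12.73 in unstimulated wild-type macrophages. The 2 unstimulated groups overlapped, both LPS-treated groups lay far under them, and the LPS-treated groups lay far apart. The difference with LPS was -7.67 ± 0.18 (SE) in Tpl2-deficient macrophages, a level at least 204-fold lower, and -3.21 ± 0.18 in wild-type macrophages, 9.26-fold lower. Between LPS-treated groups, Tpl2-deficient macrophages were lower by a log2 difference of -4.43 ± 0.18, at least 21.5-fold. Of all 18193 genes this was the lowest value both for LPS in Tpl2-deficient macrophages and between LPS-treated genotypes. Folds against LPS-treated Tpl2-deficient macrophages are lower bounds because both arrays lay under the array median, and the values are those for which the families were proposed.

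Cd300ld (CLM-5) is an activating receptor that couples to the Fc receptor gamma chain. Its levels were 9.67 and 9.80 in LPS-treated Tpl2-deficient macrophages, 10.22 and 10.12 in LPS-treated wild-type macrophages, 11.45 and 11.31 in unstimulated Tpl2-deficient macrophages and 11.61 and 11.57 in unstimulated wild-type macrophages. All 4 groups stood apart, with the LPS-treated groups lowest. It fell 3.14-fold with LPS in Tpl2-deficient macrophages (log2 difference -1.65 ± 0.10, limma adjusted p = 1.61e-07) and 2.67-fold in wild-type macrophages (-1.42 ± 0.10, adjusted p = 5.09e-07). Closely related Cd300ld copies lie beside it on chromosome 11, so part of this signal could come from them, which was not tested.

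Trem2 binds lipids and apolipoproteins and signals through DAP12, and is known from microglia and osteoclasts. It measured 12.79 and 12.68 in LPS-treated Tpl2-deficient macrophages, 12.94 and 12.92 in LPS-treated wild-type macrophages, 13.61 and 13.57 in unstimulated Tpl2-deficient macrophages and 13.79 and 13.89 in unstimulated wild-type macrophages. It was bright on all 8 arrays, and no groups overlapped. With LPS it fell 1.81-fold in Tpl2-deficient macrophages (limma adjusted p = 2.46e-05) and 1.88-fold in wild-type macrophages (adjusted p = 1.29e-05). Between the genotypes the log2 difference was -0.20 with LPS (95% interval -0.41 to 0.02, limma adjusted p = 0.263) and -0.25 without (95% interval -0.47 to -0.03, unadjusted for the number of genes, adjusted p = 0.311).

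Trem1 amplifies inflammatory signals through DAP12. Its probe set measured 5.99 and 6.01 in LPS-treated Tpl2-deficient macrophages, 6.44 and 6.84 in LPS-treated wild-type macrophages, 6.30 and 6.30 in unstimulated Tpl2-deficient macrophages and 6.05 and 6.22 in unstimulated wild-type macrophages. It exceeded the array median on 1 of 8 arrays, LPS-treated wild-type replicate 2, and the genotypes did not overlap with LPS. In wild-type macrophages LPS gave a log2 difference of 0.51 (limma adjusted p = 0.00763), and in Tpl2-deficient macrophages -0.30 (adjusted p = 0.0982). Without wild-type LPS replicate 2 the wild-type LPS difference was 0.30 (adjusted p = 0.0991), and without wild-type unstimulated replicate 1 it was 0.42 (adjusted p = 0.0653). Centring the arrays on the spike-ins changed the 2 differences to 0.37 (adjusted p = 0.0518) and -0.50 (adjusted p = 0.00944).

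Trem3, a DAP12-coupled receptor in mice, lay under the array median on all 8 arrays. It read 5.99 and 5.82 in LPS-treated Tpl2-deficient macrophages, 6.48 and 6.35 in LPS-treated wild-type macrophages, 5.80 and 5.69 in unstimulated Tpl2-deficient macrophages and 5.89 and 5.73 in unstimulated wild-type macrophages. LPS-treated wild-type macrophages stood above the others, by a log2 difference of 0.61 with LPS (limma adjusted p = 0.000753), but expression is not shown, so no fold is given. Treml4, which binds dying cells and takes part in mouse toll-like receptor 7 signalling, was also under the median on all 8 arrays. Its values were 5.40 and 5.73 in LPS-treated Tpl2-deficient macrophages, 5.94 and 5.85 in LPS-treated wild-type macrophages, 5.88 and 5.93 in unstimulated Tpl2-deficient macrophages and 5.89 and 5.88 in unstimulated wild-type macrophages. The LPS difference of Treml4 was -0.34 in Tpl2-deficient macrophages (limma adjusted p = 0.04), and it did not pass when any of 7 arrays was left out (adjusted p from 0.0583 to 0.178, the highest without Tpl2-deficient LPS replicate 1). Neutrophil markers, of which 2 of 7 had group means above the array median in each group, summed to an intensity of 1000 to 1130 in LPS-treated Tpl2-deficient macrophages, 1620 to 1810 in LPS-treated wild-type macrophages, 773 to 789 in unstimulated Tpl2-deficient macrophages and 788 to 885 in unstimulated wild-type macrophages. S100a8 was the largest part of this sum with LPS, at 9.03 in LPS-treated Tpl2-deficient and 10.17 in LPS-treated wild-type macrophages (log2 difference -1.14, limma adjusted p = 0.000142). It was the 1 of 7 markers that passed in that comparison, where 13.7% of all genes did, and the list had a median of -0.03. The part of these cells in the Trem1 and Trem3 values was not tested.

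Cd300a (CLM-8) carries ITIMs and binds phosphatidylserine and phosphatidylethanolamine on dying cells. It measured 9.74 and 9.71 in LPS-treated Tpl2-deficient macrophages, 10.08 and 10.11 in LPS-treated wild-type macrophages, 12.68 and 12.59 in unstimulated Tpl2-deficient macrophages and 12.59 and 12.49 in unstimulated wild-type macrophages. Every LPS-treated array lay below every unstimulated array, the LPS-treated genotypes stood apart, and the unstimulated genotypes lay next to each other. It fell 7.52-fold with LPS in Tpl2-deficient macrophages (log2 difference -2.91 ± 0.10, limma adjusted p = 1.19e-09) and 5.47-fold in wild-type macrophages (-2.45 ± 0.10, adjusted p = 4.09e-09).

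Cd300lf (CLM-1) also carries ITIMs and is the receptor of murine norovirus. The values were 7.79 and 7.55 in LPS-treated Tpl2-deficient macrophages, 8.21 and 8.64 in LPS-treated wild-type macrophages, 10.41 and 10.38 in unstimulated Tpl2-deficient macrophages and 10.16 and 10.37 in unstimulated wild-type macrophages. The LPS-treated groups did not overlap with each other or with the unstimulated groups. With LPS it fell 6.62-fold in Tpl2-deficient macrophages (limma adjusted p = 4.64e-08) and 3.59-fold in wild-type macrophages (adjusted p = 1.03e-06).

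Treml1 (TLT-1) is known from platelets and megakaryocytes and carries an ITIM. It measured 7.65 and 7.25 in LPS-treated Tpl2-deficient macrophages, 6.64 and 7.13 in LPS-treated wild-type macrophages, 10.44 and 10.28 in unstimulated Tpl2-deficient macrophages and 8.68 and 8.38 in unstimulated wild-type macrophages. Both unstimulated Tpl2-deficient arrays lay above all others, and no groups overlapped. The level at rest was 3.56-fold higher in Tpl2-deficient macrophages (log2 difference 1.83 ± 0.18), the fourth highest difference of all genes, and this is one of the values behind the choice of the families. With LPS the levels were 7.51-fold lower in Tpl2-deficient macrophages and 3.12-fold lower in wild-type macrophages. In LPS-treated macrophages the genotype difference of Treml1 was 0.56 ± 0.18. Of the platelet and megakaryocyte markers, 4 of 6 (Itga2b, Gp9, Gp1bb and Pf4) had group means above the array median in each group. Between the genotypes 0 of the 6 passed in either state, where 13.7% of all genes did with LPS and 0.500% at rest. The summed intensity of the 6 markers was 1700 to 1800 in unstimulated Tpl2-deficient macrophages and 1940 to 2110 in unstimulated wild-type macrophages. Pf4 was the brightest of them, at 10.14 in unstimulated Tpl2-deficient and 10.49 in unstimulated wild-type macrophages, while Itga2b had 7.64 and Gp9 7.54 in unstimulated Tpl2-deficient macrophages, against 7.39 and 7.34 in unstimulated wild-type macrophages. The median difference of the 6 at rest was 0.04, and the part of such cells in the Treml1 level was not tested.

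Tyrobp encodes DAP12, the ITAM adaptor of Cd300lb, Trem1, Trem2 and Trem3. It read 14.37 and 14.25 in LPS-treated Tpl2-deficient macrophages, 14.30 and 14.31 in LPS-treated wild-type macrophages, 14.61 and 14.61 in unstimulated Tpl2-deficient macrophages and 14.61 and 14.63 in unstimulated wild-type macrophages. The genotypes overlapped with LPS, and both LPS-treated groups lay under both unstimulated groups. It was 1.23-fold lower with LPS in Tpl2-deficient macrophages (limma adjusted p = 0.0278) and 1.25-fold lower in wild-type macrophages (adjusted p = 0.017). The Tpl2-deficient call did not pass without unstimulated replicate 1 or 2 (adjusted p = 0.118 each) or LPS replicate 2 (0.0539), nor the wild-type call without either array of either group (adjusted p from 0.0682 to 0.0834). The genotype difference was 0.01 with LPS (95% interval -0.21 to 0.22, limma adjusted p = 0.978).

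**Figure D2:**
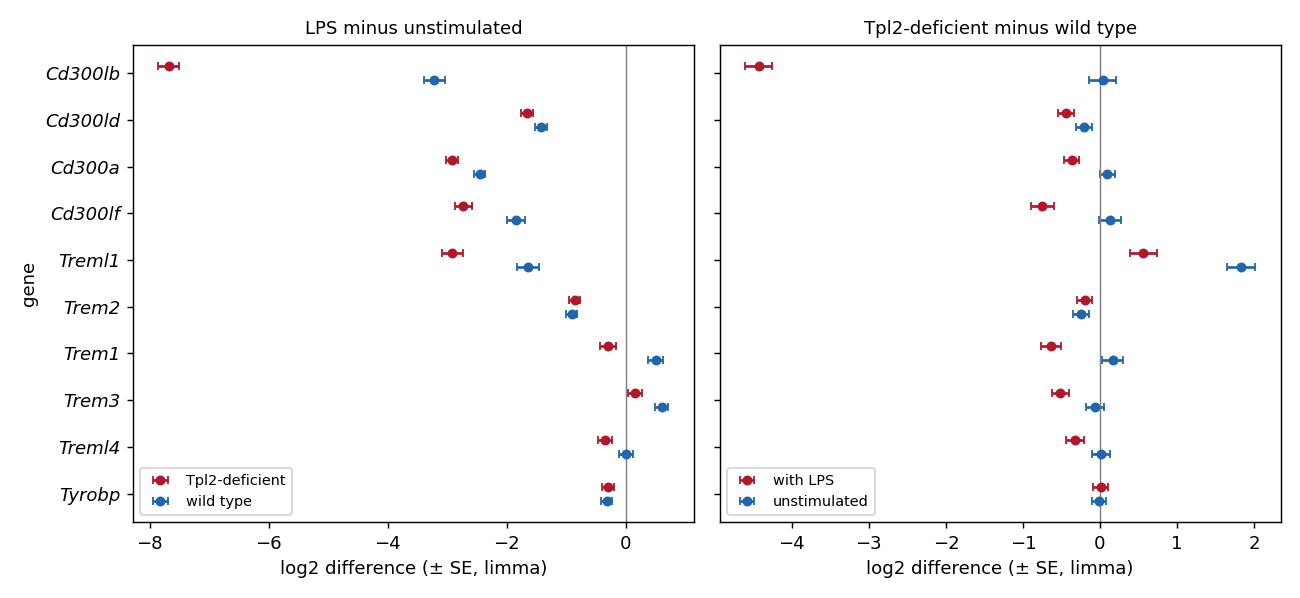
Log2 differences (± SE) for LPS minus unstimulated (left, by genotype) and Tpl2-deficient minus wild type (right, by treatment) for the 10 genes. Cd300lb stands at -7.67 and -4.43, and Treml1 lies farthest to the right at rest, at 1.83.

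Between LPS-treated genotypes, 6 of the 10 genes were lower in Tpl2-deficient macrophages and 0 higher, where 5.73% of all genes were lower, 8.01% higher and 13.7% called in either direction. The 10 genes had a median of -0.40, against 0.02 over all genes. Cd300lb is among the 6 and in the median by the choice of the families, so nothing is read from this count and median. Beside Cd300lb, Cd300lf was 1.68-fold lower (log2 difference -0.75 ± 0.15, limma adjusted p = 0.0057), Cd300ld 1.36-fold (-0.44 ± 0.10, adjusted p = 0.0156) and Cd300a 1.29-fold (-0.36 ± 0.10, adjusted p = 0.03). Trem1 (-0.64 ± 0.13, adjusted p = 0.00781) and Trem3 (-0.51 ± 0.11, adjusted p = 0.01) were lower at levels around or under the array median, and the other Trem1 probe set gave -0.16 (adjusted p = 0.522). Apart from Cd300lb, each of these calls was lost without at least 1 of the wild-type LPS arrays. Cd300ld did not pass without wild-type LPS replicate 1 (adjusted p = 0.132) or 2 (0.0611), Cd300lf and Trem1 without replicate 2 (-0.53, adjusted p = 0.0675, and -0.44, adjusted p = 0.0912), and Trem3 without replicate 1 (-0.45, adjusted p = 0.102). Cd300a did not pass without wild-type LPS replicate 1 (adjusted p = 0.13) or 2 (0.172) or without any of the 4 unstimulated arrays (0.0515 to 0.055).

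At rest the genotype difference passed for 1 of the 10 genes, Treml1, where 0.154% of all genes were higher, 0.346% lower and 0.500% called in either direction. Treml1 is there by the choice of the families, so nothing is read from this count. The log2 differences of the CD300 genes at rest were 0.03 for Cd300lb (95% interval -0.35 to 0.42), -0.21 for Cd300ld (-0.44 to 0.02), 0.10 for Cd300a (-0.12 to 0.31) and 0.13 for Cd300lf (-0.19 to 0.46). Their adjusted p by limma lay between 0.415 and 0.96.

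The difference between the 2 LPS responses (Tpl2-deficient minus wild type) was lower for 4 of the 10 genes, where 2.87% of all genes were lower, 5.72% higher and 8.59% called in either direction. Of these 4, Cd300lb (-4.46 ± 0.25, a lower bound in size) and Treml1 (-1.27 ± 0.25) are there by the choice of the families. They are described with no p, and nothing is read from this count. For Cd300lf it was -0.88 ± 0.21 (limma adjusted p = 0.0255), and this did not pass without wild-type LPS replicate 2 (-0.66, adjusted p = 0.104), wild-type unstimulated replicate 1 (-0.78, 0.101), Tpl2-deficient unstimulated replicate 1 (-0.87, 0.0823) or 2 (-0.90, 0.0806) or Tpl2-deficient LPS replicate 2 (-0.76, 0.0664). For Trem1 it was -0.80 ± 0.19 (adjusted p = 0.0238), lost without the wild-type LPS replicate 2, the wild-type unstimulated replicate 1 or either unstimulated Tpl2-deficient array (adjusted p from 0.0764 to 0.0968). Trem2 and Tyrobp had 0.05 (95% interval -0.26 to 0.36, adjusted p = 0.873) and 0.02 (-0.28 to 0.32, adjusted p = 0.956).

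**Figure D3:**
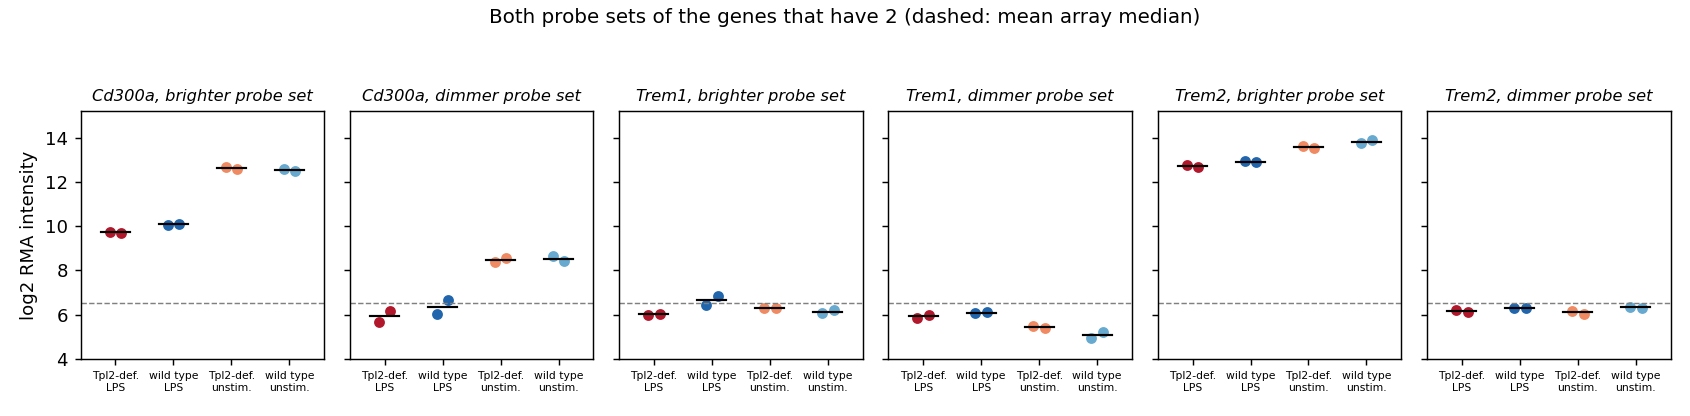
Log2 RMA intensity on each array for both probe sets of Cd300a, Trem1 and Trem2, by group, with bars at the mean of 2 arrays and the mean array median dashed. The dimmer Cd300a probe set fell with LPS as the brighter did, while the dimmer Trem2 probe set stayed between 6.03 and 6.36.

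A second probe set existed for 3 of the genes. For Cd300a it fell with LPS as well (-2.57 in Tpl2-deficient macrophages, limma adjusted p = 7.03e-07, and -2.20 in wild-type macrophages, 2.32e-06). Between LPS-treated genotypes the Cd300a call did not pass on this probe set (-0.42, adjusted p = 0.23) or on the mean of both (-0.39, adjusted p = 0.0631). For Trem2 it lay under the array median on all 8 arrays and gave LPS differences of 0.044 in Tpl2-deficient and -0.032 in wild-type macrophages, where the brighter probe set gave -0.86 in Tpl2-deficient and -0.91 in wild-type macrophages. The brighter Trem2 probe set has a name ending in _s_at, which Affymetrix gives to probe sets that may match several transcripts. For Trem1 the dimmer probe set also lay under the median, and LPS gave 0.48 in Tpl2-deficient macrophages (adjusted p = 0.00641) where the brighter gave -0.30, so the direction of Trem1 in Tpl2-deficient macrophages is not settled.

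The CD300 genes lie together on chromosome 11 in a stretch of 14 protein-coding genes, of which 8 were measured, with 4 of the 10 genes among them. Genes of other families in the stretch did not pass in Tpl2-deficient macrophages. Gprc5c and Slc9a3r1, at its ends, had LPS differences of 0.03 and 0.06, and Rab37, beside Cd300lf, had 0.18 (limma adjusted p from 0.24 to 0.906). In wild-type macrophages Gprc5c had -0.20, Rab37 had 0.11 and Slc9a3r1 had -0.31 (adjusted p = 0.023). Slc9a3r1 had group means of 12.68 to 12.98. Those of Gprc5c (6.34 to 6.55) and Rab37 (6.31 to 6.49) lay around or under the array median, so their expression is not shown. Cd300c2, an activating family relative, lies among them and fell in both genotypes (-1.22 in Tpl2-deficient macrophages, adjusted p = 2.33e-06, and -1.16 in wild-type macrophages, adjusted p = 2.99e-06), with a genotype difference of -0.09 with LPS. Relatives were otherwise few: of 9 listed, 3 were measured. Cd300lg lay under the median, and Treml2 had LPS differences of 0.38 in Tpl2-deficient and 0.65 in wild-type macrophages, of which only the wild-type value passed, and the genotype difference in response was -0.27, which did not pass.

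**Figure D4:**
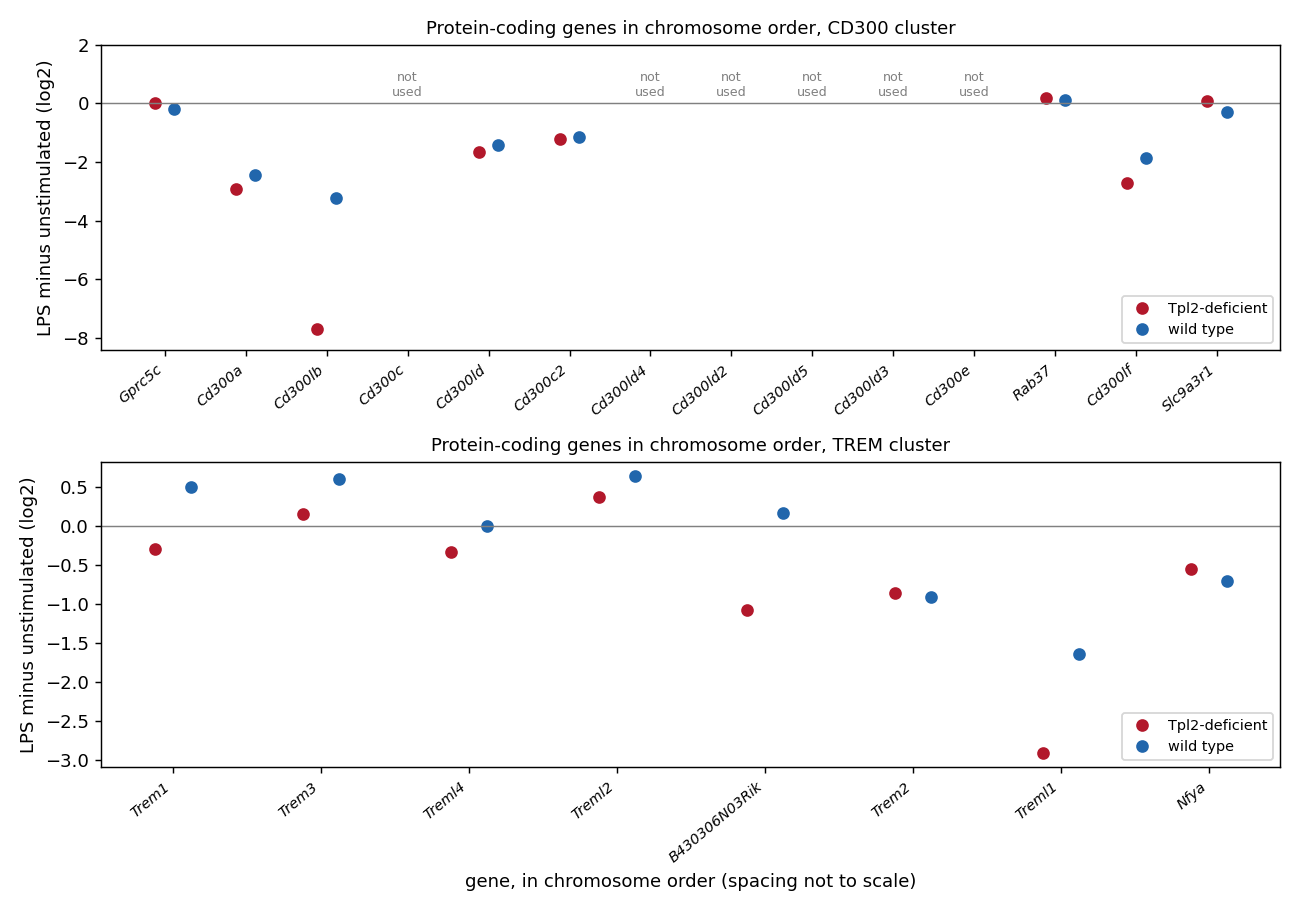
LPS minus unstimulated log2 difference of protein-coding genes in chromosome order, for the CD300 stretch of chromosome 11 (top) and the TREM stretch of chromosome 17 (bottom), with Tpl2-deficient in red and wild type in blue. "Not used" marks genes with no probe set listing only that symbol. In the top panel the measured CD300 genes fell, while Gprc5c and Rab37, at levels around or under the array median, stayed near 0.

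The TREM genes lie together on chromosome 17 in a stretch of 8 genes, all measured, 5 of them among the 10. Their LPS differences did not run together: Treml1 and Trem2 were lower in both genotypes, Trem1 and Trem3 were higher in wild-type macrophages, and Nfya, a transcription factor gene at the end of the stretch, was at -0.56 in Tpl2-deficient and -0.71 in wild-type macrophages (limma adjusted p = 0.00197 and 0.000302).

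Genes that carry the signals of these receptors were taken from lists chosen with earlier results of these data known. Of 13 measured adaptor and activating-signal genes, LPS raised 2 and lowered 5 in Tpl2-deficient macrophages and raised 5 and lowered 3 in wild-type macrophages. Over all genes LPS raised 16.0% and lowered 25.8% in Tpl2-deficient macrophages, and raised 21.3% and lowered 30.9% in wild-type macrophages. Malt1, a signalling protease scaffold, rose by 3.19 (log2) in Tpl2-deficient and 3.39 in wild-type macrophages. Lat2, an adaptor of ITAM receptors, had differences of -2.48 in Tpl2-deficient and -2.19 in wild-type macrophages. Between LPS-treated genotypes 7 of the 13 were lower in Tpl2-deficient macrophages and 1 higher, where 5.73% of all genes were lower and 8.01% higher. Their median was -0.37, against 0.02 over all genes. Lcp2, which encodes the adaptor SLP-76, was lower by -1.22 ± 0.14, Fgr, a Src-family kinase, by -1.14 ± 0.13, and Vav3, a guanine exchange factor, by -1.09 ± 0.12.

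Among 8 inhibitory-signal genes, LPS lowered 6 and raised 1 in each genotype, with Inpp5d, which encodes SHIP-1, at -4.12 in Tpl2-deficient and -3.47 in wild-type macrophages. The gene raised was Ptpn11 in Tpl2-deficient macrophages (0.475) and Ptpn6 in wild-type macrophages (0.42). Of all genes LPS lowered 25.8% and raised 16.0% in Tpl2-deficient macrophages, and lowered 30.9% and raised 21.3% in wild-type macrophages. Between LPS-treated genotypes 5 of the 8 were lower in Tpl2-deficient macrophages and 0 higher, where 5.73% of all genes were lower and 8.01% higher, with a median of -0.58 (0.02 over all genes). The adaptors Dok2 (-1.71 ± 0.16) and Dok3 (-1.09 ± 0.12) and the ubiquitin ligase Cbl (-0.98 ± 0.15) were lowest. Of 7 ligand and sheddase genes, 1 was lower in the same comparison, Timd4, at levels under the array median, while Adam10 and Adam17, which cut TREM2 from the surface, had genotype differences of -0.0016 and 0.033 with LPS. With LPS, Adam10 was at -0.88 in Tpl2-deficient and -0.87 in wild-type macrophages, and Adam17 at 0.44 in Tpl2-deficient and 0.50 in wild-type macrophages (limma adjusted p from 3.22e-05 to 0.0158).

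Of 16 other paired or ITAM-coupled myeloid receptors, LPS raised 9 in each genotype and lowered 5 in Tpl2-deficient and 4 in wild-type macrophages. The shares of all genes were 16.0% raised and 25.8% lowered in Tpl2-deficient macrophages, and 21.3% raised and 30.9% lowered in wild-type macrophages. Clec4e (Mincle) rose by 3.26 (log2) in Tpl2-deficient and 3.40 in wild-type macrophages, and Fcgr2b, the inhibitory Fc receptor, by 2.11 in Tpl2-deficient and 2.50 in wild-type macrophages. Between LPS-treated genotypes 9 of the 16 were lower in Tpl2-deficient macrophages and 0 higher, where 5.73% of all genes were lower and 8.01% higher, with a median of -0.42 (0.02 over all genes). Cd200r1, an inhibitory receptor, was lower by -1.46 ± 0.14, Fcgr3 by -0.83 ± 0.10 and Pilrb1 by -0.67 ± 0.12. At rest 0 of the 44 genes of these 4 lists passed between the genotypes in the limma fit, where 0.500% of all genes did, and 6 had an unadjusted p under 0.05.

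**Figure D5:**
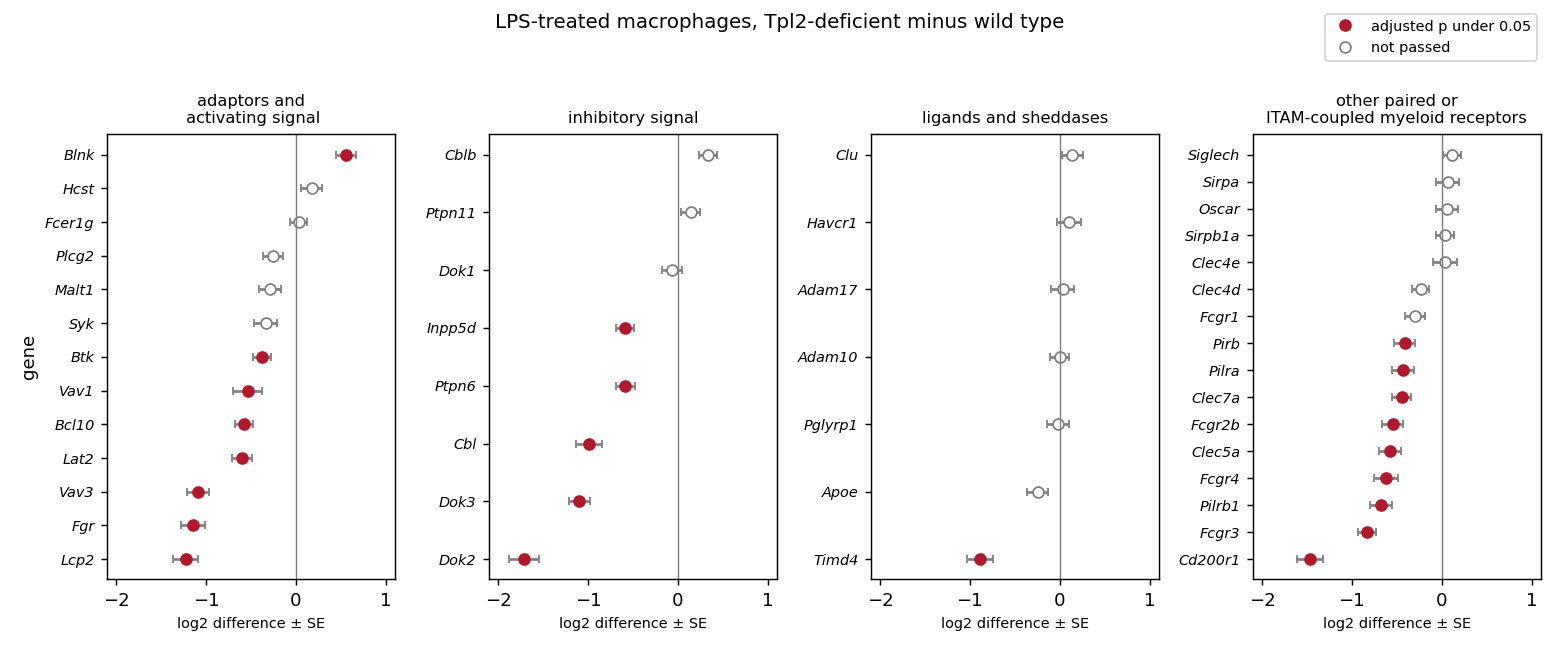
Log2 difference (± SE) between LPS-treated Tpl2-deficient and wild-type macrophages for the measured genes of the 4 lists; filled points passed at a limma adjusted p under 0.05. Filled points lie left of 0 except Blnk.

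Markers of other cells were read for comparison with the genes they can share. Of 6 mast cell markers, Hdc was above the array median in both LPS-treated groups, and their summed intensity was 2370 to 2810 in LPS-treated Tpl2-deficient macrophages, 1770 to 1810 in LPS-treated wild-type macrophages, 336 to 376 in unstimulated Tpl2-deficient macrophages and 363 to 401 in unstimulated wild-type macrophages. Hdc made up most of this sum, at 11.18 in LPS-treated Tpl2-deficient and 10.58 in LPS-treated wild-type macrophages, while Kit was lower with LPS, by -0.80 in Tpl2-deficient and -1.55 in wild-type macrophages. The part of these cells in the result was not tested. Dendritic cell markers summed to 470 to 565 in LPS-treated Tpl2-deficient, 480 to 492 in LPS-treated wild-type, 441 to 442 in unstimulated Tpl2-deficient and 422 to 423 in unstimulated wild-type macrophages. Of these 5 markers, 0 passed between the genotypes in either state, where 13.7% of all genes did with LPS and 0.500% at rest. Osteoclast markers, 4 of 6 above the median in every group, summed to 5240 to 5790 in LPS-treated Tpl2-deficient and 3470 to 4200 in LPS-treated wild-type macrophages. Acp5 was higher by 1.03, and Ctsk, Dcstamp, Ocstamp and Mmp9 were lower, by -0.45 to -1.20, while Trem2 and Tyrobp did not pass in the same comparison.

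Across the 8 arrays, the genes most like Cd300lb in pattern, of 4684 that ranged over at least 1 log2 unit with a group mean above the median, were Was (Pearson r = 0.995), Acpp (0.995), Smim15 (0.994) and Lpxn (0.994). Cd300lb ranged over 8.03 log2 units, and Was over 1.93. Those most like Treml1 were Fcho2 (0.957), Ptpn21 (0.957), Zfp30 (0.952) and Dio2 (0.9495). Those most like Cd300a were Cebpa, which encodes a myeloid transcription factor, with 0.9994, Inpp5d with 0.9993, Slc8b1 with 0.9992 and P2rx7 with 0.9989. The correlations are a description over 8 arrays in 4 groups, which share the same LPS and genotype contrasts.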

How the data were processed

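Total RNA from 8 samples, 2 for each of 4 groups, was hybridised to Affymetrix mouse arrays after biotin labelling, per the labels' protocols. The deposited values are log2 intensities; the submitters' processing notes name GCOS and RMA with no version, and no chip definition is stated. Values were used without further normalization or filter, and the choice to give folds against levels below an array's median as lower bounds came after the values were seen. Of 45101 probe sets, 34945 that list exactly 1 symbol were used, and the probe set with the highest 8-array mean stood for its gene, giving 18193 genes. Symbols and gene order come from RefSeq (GRCm38.p6), as do promoters, the only coordinates given.

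The 10 genes and the lists were chosen with earlier results of these data known. Named list genes are the relatives and, per comparison, up to 3 list members with the largest difference past the test, and others, the marker genes among them, were named after their values were seen. limma 3.58.1 in R 4.3.3 was fitted to all genes on 8 arrays with a mean per group (4 residual and 6.87 prior degrees of freedom), two-sided, with Benjamini-Hochberg adjustment over all genes and a threshold of 0.05. The fit was tested on simulated data. Same-numbered arrays deviated with correlations from -0.12 to 0.10 between groups, so numbers were not taken to pair samples. Alternatives were other probe sets or their mean, leaving out _x_at and _s_at probe sets, quantile normalization, centring on array medians or spike-ins, only genes above the median level, a variance trend, array weights, a robust prior, fits on only the 4 arrays compared, the replicate block and each array left out. A crossed block on only the 4 arrays compared was added after seeing the data.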

Additional observations from a re-analysis of the deposited data

Results flagged for a closer look

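The LPS response differed between the genotypes by a test of the difference itself (Tpl2-deficient minus wild-type response, limma) for Cd300lf, at -0.88 (adjusted p = 0.0255), and Trem1, at -0.80 (adjusted p = 0.0238). Both calls were lost without wild-type LPS replicate 2 (-0.66 for Cd300lf and -0.60 for Trem1). They were also lost without some other single arrays, as described above, so neither difference is settled. For Cd300lb the difference was -4.46 and for Treml1 -1.27, and these are descriptions with no test, since the families were proposed for differences of these genes between the genotypes. For Treml1 it goes with the higher level of unstimulated Tpl2-deficient macrophages (10.36, against 8.53 in unstimulated wild-type macrophages), and for Cd300lb with the level reached with LPS (5.12, against 9.55 in LPS-treated wild-type macrophages). Trem1 lay around or under the array median, and its dimmer probe set gave -0.51 (limma adjusted p = 0.105).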

How the results depend on the processing

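Over 23 settings, 950 values of the 10 genes were recomputed: 876 stayed on their side of the threshold with no called value changing sign, 59 no longer passed, 12 came to pass and 3 turned direction. Of the 876, 22 changed sign without passing in either fit, among them Trem3 with LPS in Tpl2-deficient macrophages (-0.05 on spike-in centring). The 3 that turned were Trem1 with LPS in Tpl2-deficient macrophages on its other probe set (0.48) and Trem2 there on its other probe set (0.044), which is also its value without _x_at and _s_at probe sets. The LPS falls of Cd300ld, Cd300a and Cd300lf passed in every alternative run in both genotypes. Those of Cd300lb and Treml1 kept their direction in every alternative, which is a description with no p. Cd300lb ranged from -8.02 to -7.33 with LPS in Tpl2-deficient macrophages and from -4.77 to -4.08 between LPS-treated genotypes. Of the 6 genes lower between LPS-treated genotypes, array weights left 3. Apart from Cd300lb, each was lost without at least 1 of the wild-type LPS arrays, as described above. Treml1 went the other way in this comparison, at 0.81 without wild-type LPS replicate 2 and 0.76 without Tpl2-deficient LPS replicate 2. For the difference of responses, 4 genes became 2 to 5 on leaving out 1 array. Over all genes, the count at rest was 91, and 140 with a variance trend, 531 with array weights, 48 with only the 4 arrays and 23 to 111 on leaving out 1 array. Between LPS-treated genotypes it was 2500, and 1580 with array weights and 1356 to 3240 on leaving out 1 array. The count for the difference of responses was 1563, and 1022 with spike-in centring and 756 to 2565 on leaving out 1 array. Spike-in centring moved the all-gene median by -0.21 for LPS in Tpl2-deficient macrophages and by -0.14 in wild-type macrophages. With the replicate block 8, 9, 6, 1 and 4 of the 10 genes passed in the 5 comparisons, as without it. Because Tpl2-deficient LPS and unstimulated arrays of the same number had a correlation of -0.12, the crossed pairing was run on these 4 arrays alone. In that fit 6 genes passed in place of 8, and each of the 10 had the same SE, 0.148. Treml4 and Tyrobp were lost, and they also did not pass on the 4 arrays without a block (limma adjusted p = 0.0927 and 0.0904). The drop therefore cannot be told apart from the use of fewer arrays. Precision is limited by 2 arrays per group and, for Trem1, Trem3 and Treml4, by signal around the array median.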

Other observations

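B430306N03Rik, a gene between Treml2 and Trem2 on chromosome 17 that was singled out after its values were seen, averaged 8.22 in LPS-treated Tpl2-deficient macrophages, 9.51 in LPS-treated wild-type macrophages, 9.29 in unstimulated Tpl2-deficient macrophages and 9.35 in unstimulated wild-type macrophages. It was lower with LPS in Tpl2-deficient macrophages (log2 difference -1.07, limma adjusted p = 5.35e-05), while wild-type macrophages had 0.17 (adjusted p = 0.328). The difference of the responses was -1.24 (adjusted p = 0.00249). Its neighbour Trem2 had LPS differences of -0.86 in Tpl2-deficient and -0.91 in wild-type macrophages.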
